A study of Mus musculus with 6 samples.

Results

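The genes described here are the mouse genes that still carried a RIKEN clone name of the 1700 series in the count tables, such as 1700016M24Rik. They were chosen by name alone: a symbol had to begin with 1700, go on in the clone format and be listed in all 6 count files. This gave 232 genes of 21786 symbols shared by the 6 files. No measured value entered the rule, but it was set with earlier results of these data known. The reads came from poly(A) RNA of whole testes of C57BL/6 mice. In 3 libraries the males were Stra8-deficient (Stra8 -/-), aged 1 year, with a grossly enlarged testis that the labels say is made up mainly of cells like type A spermatogonia. In the other 3 libraries the males were wild type (Stra8 +/+), adult, aged 2 to 4 months. Each library came from a separate male. Age differed along with genotype, so their effects on these genes cannot be told apart.

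RIKEN clone names come from a project that sequenced full-length mouse cDNAs, and clones of the 1700 series were picked from an adult testis library. An adult testis is rich in spermatocytes and spermatids, and spermatids transcribe many genes used nowhere else in the body, for the acrosome, the flagellum and the packing of DNA in the sperm head. Germ cells require the product of Stra8 for entry into meiosis, and without it they do not go on to form spermatids. Many of the clones have since received a gene symbol of their own, while others are still known by the clone name. By RefSeq's GRCm38.p6 gene table, 229 of the 232 could be matched, 139 by the clone name and 90 through a synonym of a later symbol. Of the matched genes, 166 were protein-coding and 63 non-coding, mostly lncRNAs (52) and transcribed pseudogenes (10).

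Promoter sequences of the genes at both ends of the ranking by log2 fold change are shown first, because the ends differed in their content of CpG dinucleotides, a known feature that separates broadly active promoters from many tissue-restricted ones. Each window is taken from RefSeq's GRCm38.p6 table and covers 250 bases before to 50 after the gene start, read 5′ to 3′ on the gene's strand, with every CpG in capitals. The genes are the 3 lowest and the 3 highest that had a window in the table and whose genotypes did not overlap. The lowest 3, which had 0 reads in the Stra8-deficient libraries, were 1700009N14Rik at chr4:39450043-39450342 on the plus strand, 1700110M21Rik (now Prr30) at chr14:101200020-101200319 on the minus strand and 1700013G24Rik at chr4:137453046-137453345 on the plus strand.
1700009N14Rik: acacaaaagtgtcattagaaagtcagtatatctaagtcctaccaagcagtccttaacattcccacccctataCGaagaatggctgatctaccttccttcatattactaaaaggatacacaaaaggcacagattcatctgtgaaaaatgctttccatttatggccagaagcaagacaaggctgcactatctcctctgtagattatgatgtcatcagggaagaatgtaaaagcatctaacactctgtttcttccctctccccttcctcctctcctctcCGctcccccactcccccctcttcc
1700110M21Rik (Prr30): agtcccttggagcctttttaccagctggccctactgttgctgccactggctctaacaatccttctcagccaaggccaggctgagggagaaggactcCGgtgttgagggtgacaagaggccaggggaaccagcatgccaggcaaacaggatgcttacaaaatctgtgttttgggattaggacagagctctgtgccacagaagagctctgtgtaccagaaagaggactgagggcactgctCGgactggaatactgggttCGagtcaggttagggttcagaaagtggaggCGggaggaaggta
1700013G24Rik: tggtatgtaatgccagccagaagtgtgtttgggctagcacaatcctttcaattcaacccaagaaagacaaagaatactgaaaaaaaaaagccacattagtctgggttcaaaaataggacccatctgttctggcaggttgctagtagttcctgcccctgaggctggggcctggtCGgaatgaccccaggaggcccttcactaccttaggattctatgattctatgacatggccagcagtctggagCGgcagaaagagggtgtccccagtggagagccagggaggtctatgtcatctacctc
These windows held 2, 4 and 2 CpG dinucleotides at a GC content of 44.0%, 54.3% and 49.7%. The highest 3 were 1700040I03Rik (now Pradc1) at chr6:85451921-85452220 on the minus strand, 1700021F05Rik (now Mtres1) at chr10:43540969-43541268 on the minus strand and 1700020I14Rik (now Oip5os1) at chr2:119594046-119594345 on the plus strand.
1700040I03Rik (Pradc1): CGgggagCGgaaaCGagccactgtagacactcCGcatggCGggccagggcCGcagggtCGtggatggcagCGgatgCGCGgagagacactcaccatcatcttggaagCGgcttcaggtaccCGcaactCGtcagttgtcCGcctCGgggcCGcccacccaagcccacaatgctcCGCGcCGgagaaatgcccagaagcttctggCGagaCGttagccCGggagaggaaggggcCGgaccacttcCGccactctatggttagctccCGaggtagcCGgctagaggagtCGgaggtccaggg
1700021F05Rik (Mtres1): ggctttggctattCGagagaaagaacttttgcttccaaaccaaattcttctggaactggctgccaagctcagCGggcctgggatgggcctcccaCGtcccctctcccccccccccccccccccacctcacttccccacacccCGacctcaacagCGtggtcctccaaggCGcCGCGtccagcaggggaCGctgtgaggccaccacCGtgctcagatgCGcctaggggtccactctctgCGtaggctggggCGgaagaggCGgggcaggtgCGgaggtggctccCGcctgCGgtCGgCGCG
1700020I14Rik (Oip5os1): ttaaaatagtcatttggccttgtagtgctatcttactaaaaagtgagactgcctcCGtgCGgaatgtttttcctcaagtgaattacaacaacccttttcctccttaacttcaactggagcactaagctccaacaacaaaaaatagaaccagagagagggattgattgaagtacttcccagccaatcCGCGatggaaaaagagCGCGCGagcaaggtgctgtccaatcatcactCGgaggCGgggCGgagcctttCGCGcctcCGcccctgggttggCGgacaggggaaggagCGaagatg
These windows held 27, 20 and 15 CpG dinucleotides at a GC content of 65.7%, 67.3% and 50%. For Pradc1 the table lists 2 windows and the first is shown.

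As a group the 1700-series genes held a much smaller share of the reads in Stra8-deficient testes than in wild type. They took 0.242%, 0.238% and 0.219% of the reads in shared genes in the Stra8-deficient libraries, against 2.79%, 2.82% and 2.69% in the wild-type libraries. The genotypes did not overlap and the libraries within each lay close together. The mean share was 0.233% ± 0.0124 in Stra8-deficient testes and 2.77% ± 0.068 in wild type (SD, n = 3 each), which makes it 11.9 times as large in wild type. In whole-tissue RNA, fewer cells of a type and less RNA per cell cannot be told apart. The number of these genes with at least 1 read was 150, 159 and 169 in the Stra8-deficient libraries, against 230, 230 and 228 of 232 in wild type.

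Other RIKEN clone names gave other shares. The 289 genes of the other testis-derived clone series, with names such as 4930558J18Rik, took 0.447% ± 0.059 of the reads in Stra8-deficient testes and 2.43% ± 0.045 in wild type. The 970 remaining clone-named genes, from libraries of many tissues, took 2.72% ± 0.0696 in Stra8-deficient testes and 2.31% ± 0.0139 in wild type. The lower share was thus seen in the testis-derived series and not in the remaining clone names; the difference between the series was not tested.

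**Figure D1:**
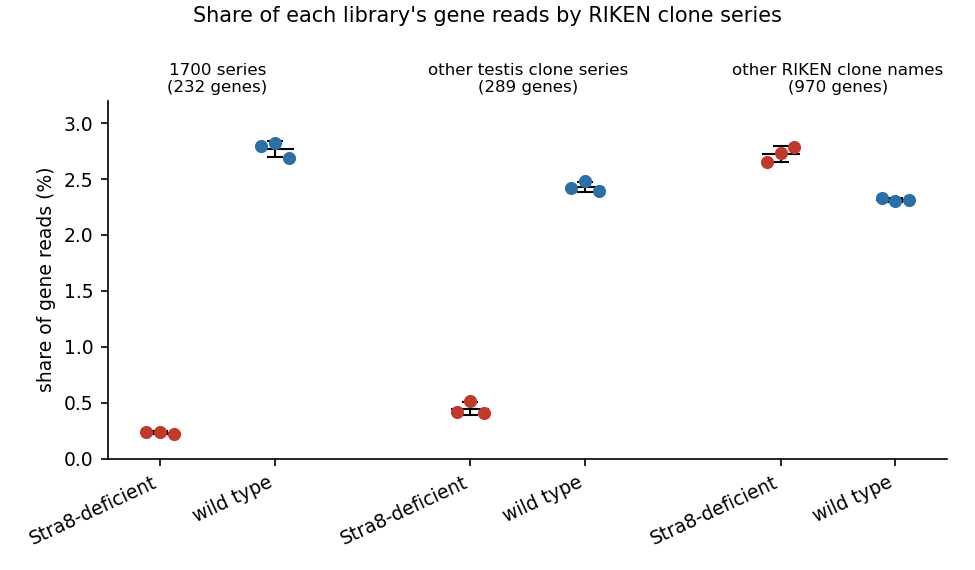
Share of each library's reads in shared genes (y axis, percent) held by 3 sets of RIKEN clone names (x axis), with Stra8-deficient libraries in red and wild-type libraries in blue; points are libraries and bars the mean ± SD (n = 3). The 1700-series genes held 0.219% to 0.242% in the Stra8-deficient group, against 2.69% to 2.82% in the wild-type group, while the remaining clone names held more in Stra8-deficient libraries.

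Gene by gene, 217 of the 232 had enough reads for the test, and the 15 that did not had between 1 and 37 reads in all wild-type libraries together. A gene was called where edgeR's quasi-likelihood F test, fitted on all 15018 genes with enough reads, gave an adjusted p under 0.05. In this comparison 75.8% of all tested genes were called, 36.7% as lower and 39.0% as higher in Stra8-deficient testes. Of the 217 tested 1700-series genes, 202 (93.1%) were called lower, 7 (3.23%) higher and 8 were not called. All 3 Stra8-deficient libraries lay below all 3 wild-type libraries for 204 of the 217, against 39.4% of all tested genes, and above them for 8, against 40.8% of all tested genes. The direction of these shares is the reverse of the background, where slightly more genes were higher than lower.

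The size of the differences was large. The median log2 fold change of the tested 1700-series genes was -7.61, with quartiles of -10.09 and -4.39, against a median of 0.11 over all tested genes. For 41 of these genes every Stra8-deficient library had 0 reads and the fitted value is no bound; with those set to the bound that 3 reads over the genotype allow, the median was -7.32. The corresponding medians were -6.36 for 264 tested genes of the other testis-derived series, with 222 lower and 16 higher, and 0.35 for 678 tested genes with other clone names, with 222 lower and 288 higher.

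**Figure D2:**
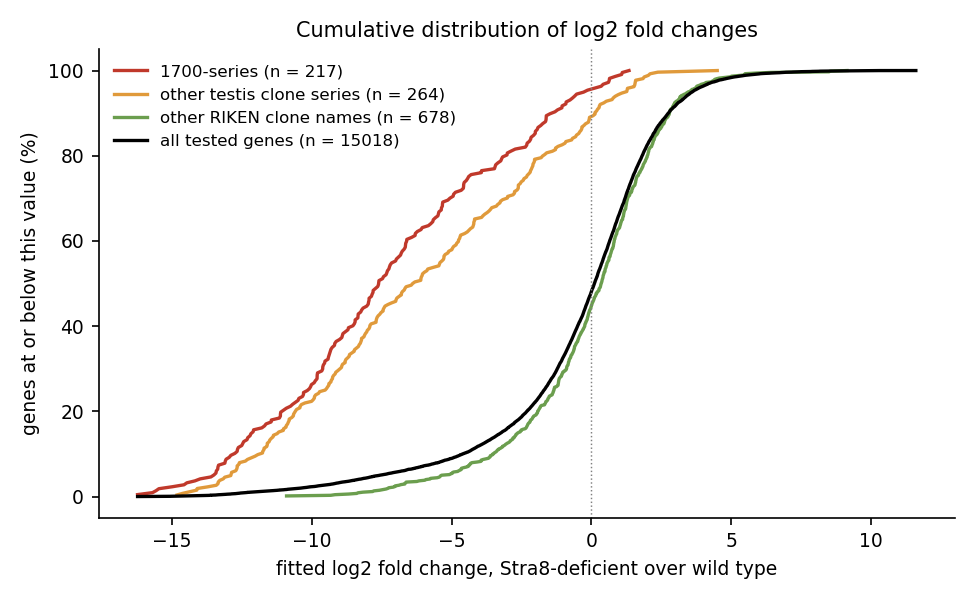
Cumulative distribution of fitted log2 fold changes, Stra8-deficient over wild type (x axis), as the percentage of genes at or below each value (y axis), for tested genes of each set. The curve of the 1700-series genes has its median at -7.61 and that of all tested genes at 0.11.

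The loss was not of 1 degree. Expressed as the mean Stra8-deficient level in percent of the mean wild-type level, the median over the tested 1700-series genes was 0.466%. No read at all was found for 41 genes, 88 kept more than 0 but under 1%, 41 kept 1% to under 10%, 29 kept 10% to under 50%, 8 kept 50% to under 100% and 10 stood at 100% or more. The genes with 0 reads and those under 1% together accounted for 20.8% and 52.2% of the wild-type reads of the group, so most of the wild-type signal came from genes that were close to absent in Stra8-deficient testes. The 10 genes at 100% or more had held 1.31% of it.

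**Figure D3:**
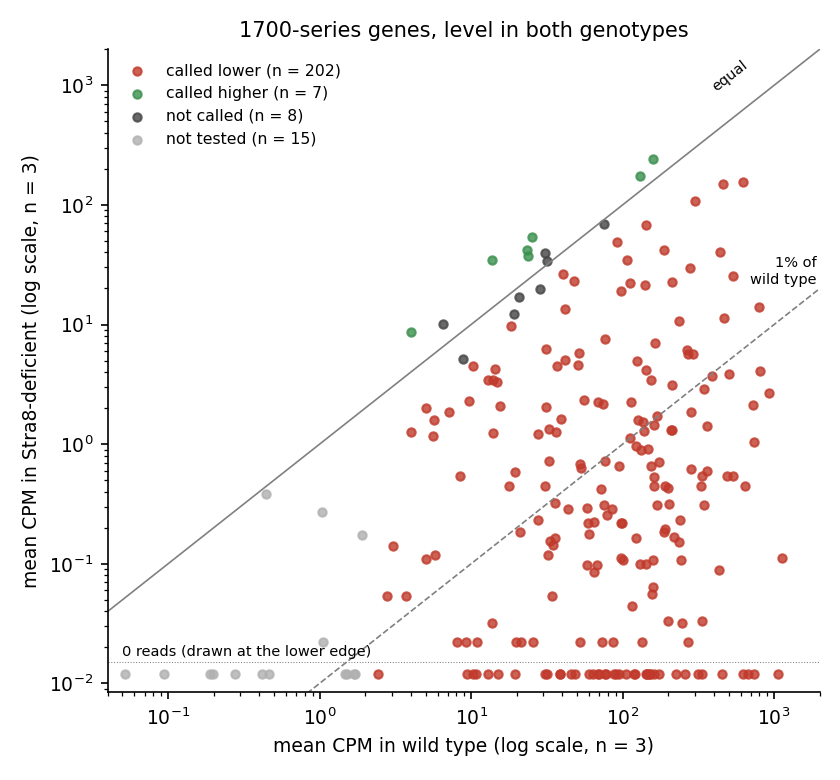
Mean level of each 1700-series gene in Stra8-deficient testes (y axis) against wild type (x axis), both in CPM (a gene's reads per 1000000 gene reads after TMM scaling) on log scales, coloured by the call; genes with 0 reads in Stra8-deficient libraries are drawn below the dotted line. Most genes lie below the dashed line at 1% of the wild-type level, and 7 called higher lie above the line of equal levels.

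The genes that were highest in wild type and absent in Stra8-deficient testes illustrate the extreme. Levels are given in CPM, a gene's reads per 1000000 gene reads of the library after TMM scaling. 1700016M24Rik, now Mroh4, a HEAT-repeat protein gene, had 0 reads in each Stra8-deficient library, against 1101, 1075 and 1014 CPM in wild type (20227 reads). Against the bound of 3 reads over the genotype, it was at least 12598-fold lower (fitted log2 fold change -16.24, edgeR adjusted p = 7.40e-08). For scale, 3 reads in a single library correspond to 0.201 to 0.549 CPM.

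The same complete absence held for protein-coding genes that still have no name beyond the clone. 1700009N14Rik had 0 reads in Stra8-deficient testes, against 707, 812 and 682 CPM in wild type, which makes it at least 8735-fold lower. 1700013G24Rik had 0 reads as well, against 628, 631 and 622 CPM, and was at least 7413-fold lower. Neither overlaps the exons of another gene in GENCODE M21, and the 1700009N14Rik and 1700013G24Rik windows are among the CpG-poor promoters printed above.
1700110M21Rik (Prr30), a gene for a proline-rich protein, had 0 reads in Stra8-deficient testes against 663, 705 and 648 CPM in wild type, which is at least 7969-fold lower. 1700074P13Rik and 1700129C05Rik were at least 5356-fold and 3735-fold lower. For all of these the Stra8-deficient libraries were at 0 while the wild-type libraries lay within a narrow range of each other.

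Non-coding genes were among the most reduced too. 1700123L14Rik, a transcribed pseudogene that took the most reads of the group in wild type, had 0.200, 0 and 0.134 CPM in Stra8-deficient libraries, against 1094, 1110 and 1157 CPM in wild type. That is 4 reads against 21216, at a log2 fold change of -13.11 ± 0.41 (SE; edgeR adjusted p = 2.71e-08). Reads of a pseudogene may be shared with a similar copy, so its count is uncertain. 1700022A21Rik, also a transcribed pseudogene, had 0 reads against 258, 271 and 239 CPM and was at least 3043-fold lower. 1700027A15Rik, a lncRNA gene, had 0 reads against 364, 356 and 287 CPM and was at least 4007-fold lower; it lies opposite Tnp1, the gene of a spermatid transition protein, and without a stated strand its reads cannot be told from those of Tnp1.

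The other genes with the most reads in wild type kept a trace. 1700003E16Rik, a protein-coding gene, had 4.51, 2.00 and 1.47 CPM in Stra8-deficient testes, against 920, 934 and 942 CPM in wild type (log2 fold change -8.48 ± 0.43). 1700010I14Rik had 2.20, 2.85 and 1.27 CPM, against 731, 701 and 751 CPM (-8.45 ± 0.33). 1700025K23Rik, now Fam229b, had 4.51, 4.38 and 3.34 CPM, against 808, 893 and 736 CPM (-7.64 ± 0.24). 1700029G01Rik, now Sh3d21, a gene for an SH3-domain protein, kept more than these, with 16.8, 9.89 and 15.0 CPM against 840, 836 and 705 CPM (-5.83 ± 0.27). In each of them every Stra8-deficient library was far below every wild-type library.

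Levels between genes can be compared only per length. Divided by the exon length in GENCODE M21, the highest wild-type levels of the group were those of 1700123L14Rik (641 CPM per kilobase), 1700013G24Rik (598), 1700009N14Rik (583) and 1700029F12Rik (567). In Stra8-deficient testes the highest were those of the transcribed pseudogene 1700018B24Rik (115 CPM per kilobase), 1700029F09Rik (90.3) and 1700037H04Rik (65.6). The genes at the head of the wild-type order were therefore not those at the head of the Stra8-deficient order.

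**Figure D4:**
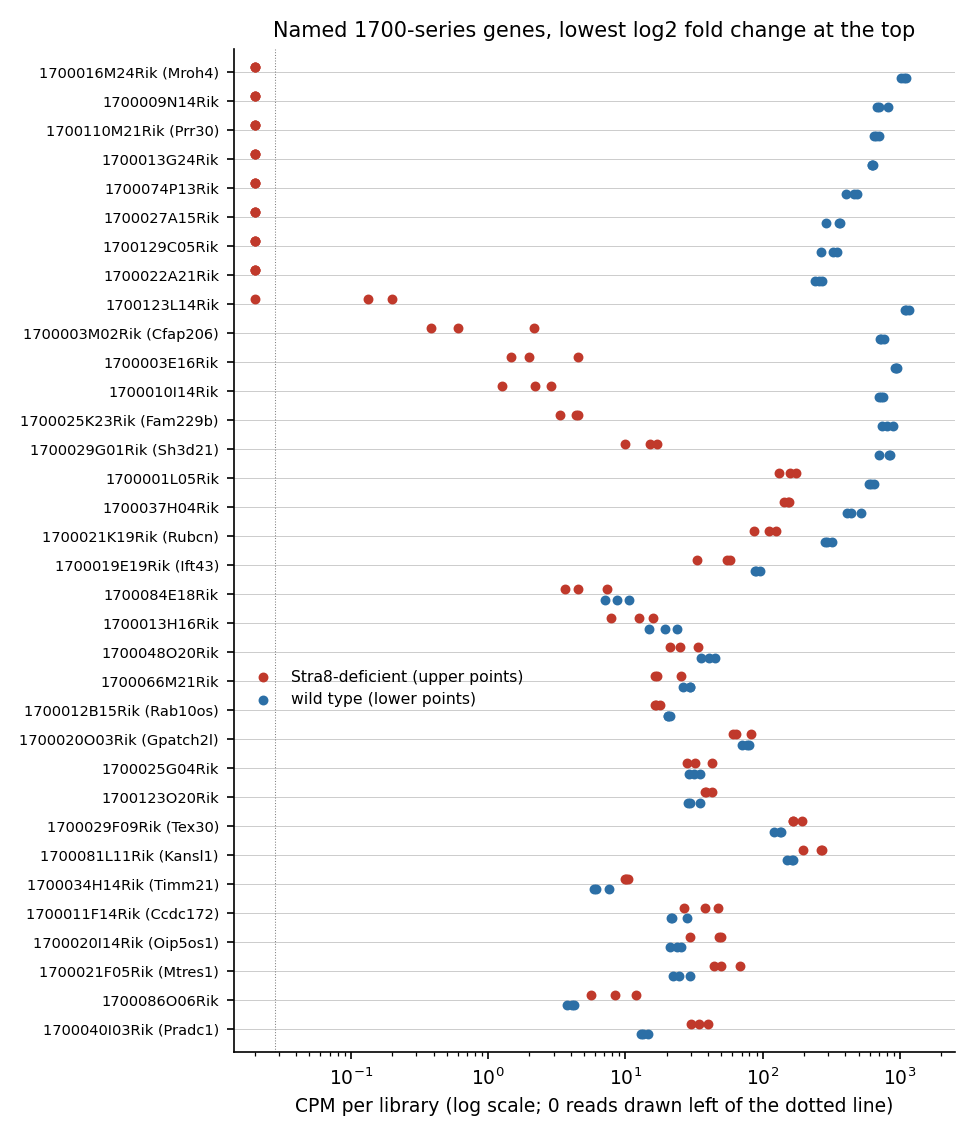
Level of 34 named 1700-series genes in each library (x axis, CPM on a log scale; 0 reads are drawn left of the dotted line), with the gene lowest in log2 fold change at the top. Stra8-deficient libraries are red upper points and wild-type libraries blue lower points; the top 8 genes have 0 reads in all Stra8-deficient libraries, and Pradc1 at the bottom has 29.9 to 39.8 CPM in Stra8-deficient against 13.0 to 14.5 CPM in wild-type libraries.

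Some of the genes that have since been named have known roles in sperm, and others have not. The families and genes in this and the next 4 paragraphs were picked by their later symbols after their values had been seen, and are examples rather than a selection by size. The sperm flagellum is built around an axoneme of microtubules, and 7 of the genes now bear Cfap symbols, for cilia and flagella associated proteins. All 7 were called lower, with a median log2 fold change of -6.66. Over all tested 1700-series genes 93.1% were lower, at a median of -7.61. The counts for this and the other families below are to be read beside that share. 1700003M02Rik, now Cfap206, an axonemal protein gene needed for mouse sperm flagella, had 0.601, 0.380 and 2.14 CPM in Stra8-deficient testes, against 713, 731 and 765 CPM in wild type (-9.34 ± 0.53). 1700006E09Rik (Cfap97d1) had 0 reads against 84.0, 79.6 and 71.0 CPM and was at least 929-fold lower.
Cfap126, Cfap161, Cfap157 and Cfap299 lay between -7.22 and -6.61. 1700101E01Rik (Cfap77) was the family member with the most signal left, at 4.71, 2.09 and 3.21 CPM against 15.4, 14.1 and 15.2 CPM (-2.16 ± 0.34), or 22.4% of the wild-type level. Cfap77 was also the member with the fewest wild-type reads of the family (282).

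Other genes with a part in flagella and cilia differed in how much signal they kept. 1700019N12Rik, now Catsperz, encodes an accessory subunit of the CatSper calcium channel of the sperm tail. It had 4.21, 2.09 and 4.75 CPM in Stra8-deficient testes, against 374, 400 and 389 CPM in wild type (-6.70 ± 0.32); an exon overlaps Kcnk4 in GENCODE M21. 1700027A23Rik, now Pifo, a ciliary gene, had 1.10, 0.380 and 1.20 CPM, against 134, 125 and 138 CPM (-7.15 ± 0.33). 1700019E19Rik, now Ift43, encodes a part of the intraflagellar transport machinery that most ciliated cells use. It fell far less, with 33.3, 57.9 and 55.2 CPM against 89.2, 96.1 and 88.4 CPM (-0.90 ± 0.23, edgeR adjusted p = 0.00526), and its call was lost when libraries were scaled by size alone (log2 fold change -0.29, adjusted p = 0.241). For Ift43 the genotypes still did not overlap.

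Genes known from the acrosome and fertilisation were among those called lower. 1700034O15Rik, now Llcfc1, whose product mouse sperm need to fuse with the egg, had 2.71, 0.856 and 2.01 CPM in Stra8-deficient testes, against 276, 283 and 292 CPM in wild type (-7.24 ± 0.35). 1700026L06Rik, now Spaca9, a sperm acrosome associated gene, had 6.41, 5.33 and 5.35 CPM, against 310, 303 and 260 CPM (-5.67 ± 0.20). 1700029J11Rik (Fam209) stood at -8.25 ± 0.27. The 4 genes now called Spata or Spatc, for spermatogenesis associated, were all lower, with log2 fold changes from -9.81 to -8.34. 1700021C14Rik, now Tsacc, a co-chaperone gene of a testis-specific kinase, kept more, with 24.6, 14.5 and 29.4 CPM against 216, 212 and 208 CPM (-3.21 ± 0.26), or 10.8% of the wild-type level.

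Histone variants, some of which serve the repackaging of spermatid DNA, made up 4 of the renamed genes, and 3 of them had 0 reads in Stra8-deficient testes. 1700024P04Rik, now H2bl1, had 0 reads against 182, 174 and 161 CPM in wild type, which is at least 2046-fold lower. 1700054O13Rik, now H2ap, on the X chromosome, had 0 reads against 136, 125 and 95.2 CPM and was at least 1416-fold lower. The other two, H2al1m and H2bfm, were too low to test, with 0 and 9 reads in Stra8-deficient against 9 and 19 reads in wild-type libraries.

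Of 9 genes now called Tex, for testis expressed, 8 were lower and 1 was higher. 1700018L24Rik (Tex29) had 0 reads in Stra8-deficient testes, against 105, 107 and 104 CPM in wild type, which is at least 1245-fold lower. 1700057K13Rik (Tex35) had 1 read against 3826, a ratio of wild type over Stra8-deficient of 7149 with a 95% counting interval of 1282 to 282443. 1700061J05Rik (Tex33) had 0.702, 0.380 and 0.535 CPM, against 500, 498 and 471 CPM (-9.80 ± 0.27). The exception, 1700029F09Rik (Tex30), is described with the higher genes. The 7 genes now called Fam and both Ms4a genes were lower as well, and of 6 genes now called Ccdc 5 were lower and 1 higher.

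Some of the renamed genes have a known part in meiosis or encode enzymes of wider use. 1700123I01Rik, now Majin, which ties telomeres to the nuclear envelope in meiotic prophase, had 4.41, 4.28 and 4.15 CPM in Stra8-deficient testes, against 15.3, 13.5 and 14.1 CPM in wild type (-1.74 ± 0.26, edgeR adjusted p = 2.23e-04). 1700012A16Rik (Shcbp1l), a meiotic spindle gene in mouse, had 38.3, 50.6 and 31.4 CPM, against 442, 442 and 425 CPM (-3.45 ± 0.22). They kept 29.9% and 9.18% of the wild-type level. 1700052N19Rik (Armt1), a protein methyltransferase gene, stood at -2.17 ± 0.23 and 1700106N22Rik (Camkmt), a calmodulin methyltransferase gene, at -1.21 ± 0.33.

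What little the 1700-series genes yielded in Stra8-deficient testes came from few of them. The 10 genes with the most reads held 59.2% of the group's 66235 reads in Stra8-deficient libraries, and 7 genes were enough for 50%. In wild type the top 10 held 24.0% of 652172 reads, and 31 genes were needed for 50%. The 6 with the highest CPM in Stra8-deficient testes were Kansl1, Tex30, 1700001L05Rik, 1700037H04Rik, Rubcn and Gpatch2l. 3 of these were lower than in wild type all the same.

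1700001L05Rik, a lncRNA gene, had 158, 173 and 132 CPM in Stra8-deficient testes, against 612, 649 and 598 CPM in wild type (-2.0 ± 0.18, edgeR adjusted p = 8.45e-06). 1700037H04Rik, a protein-coding gene, had 144, 154 and 151 CPM, against 414, 442 and 519 CPM (-1.61 ± 0.17). 1700021K19Rik, now Rubcn, a negative regulator of autophagy, had 124, 111 and 86.1 CPM, against 294, 284 and 318 CPM (-1.48 ± 0.19); an exon overlaps Fyttd1. All 3 showed a clear remainder of 24.9% to 35.9% of wild type without overlap between genotypes. 1700020O03Rik, now Gpatch2l, was not called: it had 60.3, 81.8 and 63.5 CPM against 79.3, 70.2 and 76.7 CPM (-0.14 ± 0.18, adjusted p = 0.501), and its sign turned to 0.48 with library size alone and 0.14 with upper-quartile scaling.

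Only 7 of the 217 tested genes were called higher, against the 39.0% of all tested genes given above, and their differences were small. 1700040I03Rik, now Pradc1, which encodes a protease-associated domain protein, had 39.8, 29.9 and 34.6 CPM in Stra8-deficient testes, against 13.4, 14.5 and 13.0 CPM in wild type (1.35 ± 0.21, edgeR adjusted p = 2.76e-04). It was the sole one whose difference also passed a test against a fold of 2 (adjusted p = 0.0349), and its exons overlap those of Cct7, so reads may be shared. 1700021F05Rik, now Mtres1, a gene for a mitochondrial RNA-binding protein, had 44.2, 49.4 and 67.7 CPM, against 29.5, 24.5 and 22.2 CPM (1.08 ± 0.23, adjusted p = 0.00190). Neither call was lost when any library was left out.

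1700020I14Rik, now Oip5os1, the lncRNA also known as Cyrano, had 29.4, 47.7 and 49.8 CPM in Stra8-deficient testes, against 23.7, 25.5 and 21.1 CPM in wild type (0.85 ± 0.24, edgeR adjusted p = 0.0103; 0.0523 without wild-type replicate 3). 1700081L11Rik, now Kansl1, a scaffold of a histone acetyltransferase complex, had 269, 267 and 196 CPM, against 163, 150 and 165 CPM (0.61 ± 0.18, adjusted p = 0.0123; 0.0524 without wild-type replicate 1 and 0.0746 without replicate 2). 1700029F09Rik, now Tex30, had 165, 165 and 192 CPM, against 135, 134 and 120 CPM (0.42 ± 0.16, adjusted p = 0.0364). The Tex30 call was lost with RLE scaling (0.30, adjusted p = 0.115) and without Stra8-deficient replicate 3 or any one wild-type library (adjusted p 0.0662 to 0.167). In these 3 genes all Stra8-deficient libraries were above all wild-type libraries.
1700086O06Rik, a lncRNA gene that overlaps Dele1, had 8.42, 5.61 and 11.8 CPM, against 3.74, 4.09 and 4.21 CPM (1.11 ± 0.36, adjusted p = 0.0187; 0.0573 to 0.0749 without 1 wild-type library). 1700011F14Rik, now Ccdc172, was the one called gene whose genotypes overlapped, with 37.9, 47.6 and 26.7 CPM against 21.7, 28.1 and 21.6 CPM (0.65 ± 0.25, adjusted p = 0.0413). Its adjusted p was 0.0888 and 0.156 without Stra8-deficient replicates 1 and 2, 0.0565 to 0.143 without 1 wild-type library, and 0.0909 with RLE scaling. With each wild-type library left out in turn 3 genes were called higher, and with each Stra8-deficient library left out 6.

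The 8 genes that were not called had log2 fold changes from -0.76 to 0.64. 1700025G04Rik, a protein-coding gene, had 32.0, 42.3 and 28.3 CPM in Stra8-deficient testes, against 34.8, 31.6 and 28.9 CPM in wild type (0.11 ± 0.21, edgeR adjusted p = 0.669), with a sign that depended on the scaling. 1700012B15Rik, now Rab10os, an antisense lncRNA of Rab10, had 16.5, 17.8 and 16.7 CPM, against 20.3, 21.1 and 20.5 CPM (-0.28 ± 0.20, adjusted p = 0.218; 0.33 with library size alone). 1700034H14Rik, now Timm21, a mitochondrial import gene, had 10.1, 9.89 and 10.5 CPM, against 6.08, 7.61 and 5.86 CPM (0.64 ± 0.27, adjusted p = 0.0539). The lowest of the 8 were 1700084E18Rik, a non-coding gene, with 4.51, 3.61 and 7.29 CPM against 8.73, 7.05 and 10.6 CPM (-0.76 ± 0.36, adjusted p = 0.0791), and 1700013H16Rik, a protein-coding gene, with 15.8, 12.7 and 7.89 CPM against 19.3, 23.7 and 14.8 CPM (-0.68 ± 0.31, adjusted p = 0.0761). In both of these the genotypes overlapped. A p above the threshold does not show that these levels were equal.

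The share of lower calls differed little between kinds of genes. Among protein-coding genes 149 of 160 tested were lower, 5 higher and 6 not called, with a median log2 fold change of -7.91. Among non-coding genes 50 of 54 were lower, 2 higher and 2 not called, with a median of -7.01. Genes that have kept the clone name were lower in 123 of 129 and higher in 1, and genes with a later symbol were lower in 76 of 85 and higher in 6. In 5 equal bins of the mean level over all 6 libraries, lowest to highest, 41 of 44, 36 of 43, 41 of 43, 42 of 43 and 42 of 44 were lower. Of the 11 X-linked genes 6 could be tested, and 5 of them were lower. All 23 tested genes with a single exon were lower, among them H2bl1.

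Overlap with another gene went with a smaller loss. The 55 tested genes whose exons overlapped another gene in GENCODE M21 were lower in 46, higher in 4 and not called in 5, with a median log2 fold change of -5.32. The 157 tested genes without overlap were lower in 151, higher in 3 and not called in 3, with a median of -8.36. Only 2 of the 55 overlapping genes had 0 reads in Stra8-deficient testes, against 49 of all 172 without overlap. How the authors counted strands is not given in the sources used here, so reads of an overlapping neighbour may be counted for the clone gene, and their part in the difference was not tested.

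A gene that starts close by on the other strand did not always follow. GENCODE M21 places the start of another gene within 1000 bases upstream on the opposite strand for 28 of the genes, and in 17 of these pairs both genes were tested. In 9 pairs both were lower, in 3 the 1700-series gene was lower and its partner not called, and in 4 the partner was higher. In the last pair, 1700066M21Rik was not called and its partner 4930558J18Rik was lower. Over all tested genes 36.7% were lower and 39.0% higher, and whether the partners differ from these shares was not tested. The partner of 1700011I03Rik, 1700066O22Rik, is itself a 1700-series gene. Fam229b starts 62 bases from Tube1, a tubulin gene, which was higher at 1.86 ± 0.23 while Fam229b stood at -7.64. Tsacc starts 117 bases from Cct3, a chaperonin subunit gene, which was higher at 0.57 ± 0.18. The lncRNA gene 1700001G17Rik (-2.21) starts 29 bases from Prim2, a DNA primase subunit gene, which was higher at 1.70 ± 0.18, and 1700028J19Rik (-8.80) starts 27 bases from 2410002F23Rik, which was higher at 1.59 ± 0.29. In the pairs with both lower, the partners included the spermatid kinase gene Tssk3 at -11.24 beside 1700125D06Rik (Fam229a) at -9.81, and Ak8 at -5.45 beside Spaca9 at -5.67.

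The CpG content of the promoter, shown above for 6 genes, differed between the calls across the group, though with a wide overlap. RefSeq's table holds a window for 182 of the 232 genes, 173 of them tested. The 13 that were higher or not called had a median of 20 CpG dinucleotides per 300 bases, with a range of 11 to 39. The 160 that were lower had a median of 7, as had all 27025 genes in the table, which include genes not tested here. The equal medians hide a difference in the upper part. At least 12 CpG dinucleotides were held by 28.7% of the lower windows, 92.3% of the other 13 and 40.1% of all. Among the lower genes, the median was 17 in the 27 that kept at least 10% of the wild-type level, 4 in the 133 that kept less and 3.5 in the 32 with 0 reads. None of the 13 genes that were higher or not called had fewer than 11, but genes that kept under 10% of the wild-type level reached 33 as well, such as Fam229b with 27 and Cfap206 with 21. The lower limit of 11 rests on the call of 1700048O20Rik, a gene with 1 CpG that was called lower at only -0.60 (edgeR adjusted p = 0.0384). That call was lost in 7 alternatives and its sign turned in 1. This is a description over genes, without a test. Genes outside the group were not split by call, so it is not known whether the difference is particular to the group.

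**Figure D5:**
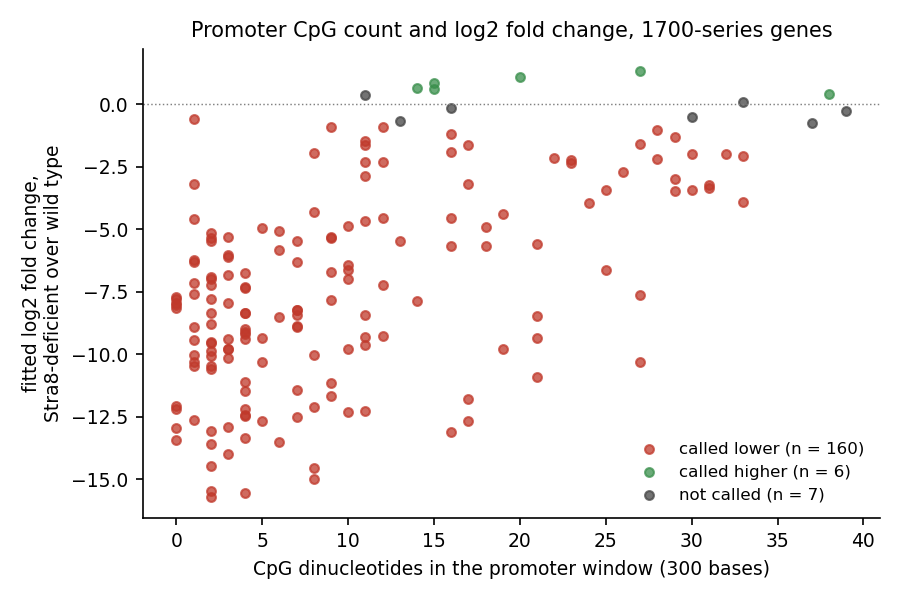
Fitted log2 fold change, Stra8-deficient over wild type (y axis), against the number of CpG dinucleotides in the 300-base promoter window (x axis) for 173 tested 1700-series genes, coloured by the call. Genes called higher or not called have 11 to 39 CpG dinucleotides, and genes called lower 0 to 33.

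Short sequence motifs were searched on both strands of the same windows. GGGCGG, the GC box, was found in 12 of 13 windows of genes that were higher or not called (92.3%), in 36 of 160 windows of lower genes (22.5%) and in 35.9% of all windows in the table; each match holds a CpG and so repeats part of the comparison above. GTTGCC, a half-site of the X-box bound by RFX factors, was in 34 of 160 windows of lower genes (21.2%), in 0 of the other 13 and in 12.7% of all. CNGTTG, a form of the Myb motif, was in 48.4% of the 182 windows (5 of the 13 and 79 of the 160) and 35.1% of all, and in the 100 bases nearest the start in 26.9% and 15.1%. TGACGTCA, the full cAMP response element, was in 1.10% of the 182 windows against 1.88% of all; both matches were among the 13 and 0 among the 160. TGACG, contained in it, was in 21.4% of the 182 against 21% of all, with 7 of the 13 (53.8%) and 31 of the 160 (19.4%); it too holds a CpG. AACNGTT, a further Myb form that can overlap CNGTTG, was in 3.30% of the 182 against 4.36% of all, with 0 of the 13 and 3 of the 160, and TATAAA in 10.4% against 14.2%, with 3 of the 13 and 15 of the 160. A match is only a run of letters and not a bound site.

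Stra8-deficient libraries differed more from each other than wild-type libraries did. Over genes of the group with at least 30 reads in a genotype, the median coefficient of variation was 28.8% in Stra8-deficient (92 genes) and 7.98% in wild-type libraries (220 genes). The highest library exceeded the lowest more than 2-fold for 36 of the 92 and 3 of the 220. These are different sets of genes, and the group had 66235 reads in Stra8-deficient against 652172 in wild-type libraries. Counting error, larger at low reads, therefore adds to this contrast. Over genes of the whole series, a chi-square per degree of freedom, scaled to counting error, was 53.6 to 65.2 between Stra8-deficient and 2.74 to 4.4 between wild-type libraries. Marker RNA of other cells also differed between the testes. The summed level of 6 Leydig cell markers was 18.4 to 2672 CPM in Stra8-deficient and 746 to 1226 CPM in wild-type libraries. Replicate 3 of the Stra8-deficient group was counted on a longer list of symbols (23285 against 22055). How much each of these adds to the spread was not tested. Among 108 lower genes with at least 10 reads in Stra8-deficient testes, the highest library was replicate 1 for 43, replicate 2 for 36 and replicate 3 for 29, so no single testis carried the remainder. 1700023A16Rik, now Smco2, was an example of an uneven remainder chosen after its values were seen, with 1.5, 9.42 and 1.47 CPM in Stra8-deficient testes against 144, 149 and 135 CPM in wild type (-5.13 ± 0.70).

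Of the whole series, these facts bear on the group. The 3 Stra8-deficient libraries held 7883466 to 12425689 gene reads, and the 3 of wild type 6733128 to 8937224. The Stra8 gene had 21.2, 23.7 and 18.1 CPM in Stra8-deficient testes, against 18.7, 18.6 and 17.0 CPM in wild type (0.21 ± 0.21, edgeR adjusted p = 0.384); which part of the gene the allele lacks is not given, so this level does not check the labels. Several marker lists moved with the 1700-series genes: all 9 round spermatid markers (summed level 16.8 to 24.0 against 2439 to 2633 CPM, Catsper1 at 0) and all 9 elongating spermatid markers (4.85 to 13.6 against 28960 to 33440 CPM, H1fnt at 0) were lower, as were 8 of 9 pachytene spermatocyte markers (208 to 289 against 10770 to 11540 CPM). Of 7 tested meiotic prophase markers 4 were lower and 3 not called (221 to 249 against 407 to 466 CPM), at a median log2 fold change of -0.39. The 4 lower ones were Spo11 (-3.74), Rec8 (-2.86), Msh4 (-0.68) and Sycp3 (-0.39). The 3 not called were Hormad1 (-0.29), Sycp1 (-0.03) and Dmc1 (0.0034). Of 12 markers of undifferentiated spermatogonia 10 were higher and 2 lower (1373 to 2215 against 115 to 121 CPM). Sertoli cell markers were lower in 6 of 7 (88.2 to 668 against 1568 to 1753 CPM), and macrophage markers higher in 5 of 6 (352 to 1087 against 81.3 to 87.8 CPM). Of 5 tested markers of multiciliated epithelium 3 were lower, Myb was higher (5.83 ± 0.38) and 1 was not called (33.3 to 41.8 against 573 to 698 CPM), while Lcn5 and Crisp1 had 0 reads in every library of both genotypes. Most of the wild-type sum of this list came from Tekt1 (433 to 533 CPM) and Foxj1 (128 to 152 CPM), so it does not show that such epithelium was present. The part of each cell type in the levels of the 1700-series genes was not tested.

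To separate genes that were undetected from genes still read, those with at least 1 CPM in each Stra8-deficient library were taken apart. Among the 76 such 1700-series genes 61 were lower, 7 higher and 8 not called, with a median log2 fold change of -2.54. Of all 12912 tested genes that met the same cutoff, 28.9% were lower and 45.4% higher, with a median of 0.47. The group was thus also low among genes that Stra8-deficient testes did express, although the cutoff itself favours genes that are high there.

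In the authors' deposited table of the same comparison all 232 genes were listed, of which 211 were lower, 4 higher and 17 not called at a corrected p under 0.05. For the 217 genes tested here the call was the same in 213. The 4 that differed were 1700011F14Rik, 1700029F09Rik, 1700048O20Rik and 1700081L11Rik. None of them was called in the authors' table (authors' edgeR corrected p 0.0631 to 0.218). Of the 7 genes called higher here, 4 were thus also higher there. 1700048O20Rik, a lncRNA gene, had 25.1, 20.9 and 33.8 CPM in Stra8-deficient testes against 35.5, 40.3 and 45.0 CPM in wild type (-0.60 ± 0.23, edgeR adjusted p = 0.0384), and its log2 fold change was 0.02 with library size alone. Its adjusted p was 0.0538 and 0.0543 without Stra8-deficient replicates 1 and 2, and 0.0565 to 0.129 without 1 wild-type library.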

How the data were processed

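Poly(A) RNA of 6 whole testes was sequenced, 3 libraries per genotype. Per the submitters' processing notes the authors' tools were TopHat, HTSeq and edgeR on build mm9; not given in the sources used here were their versions, the annotation and the handling of strands. Values in the deposited files are counts, whole and not normalised, of reads per gene symbol. HTSeq's counters, which name no gene, took 20.9% to 34.5% of a library's reads and were left out. The authors' deposited table of the same comparison gives log2 ratios and corrected p-values. The file of Stra8-deficient replicate 3 holds 23285 symbols and each of the others 22055, so the 21786 shared symbols were used. Columns that could not be matched to a sample numbered 0.

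Genes were filtered with filterByExpr, scaled by TMM (factors 0.796 to 1.27) and tested in R 4.3.3 by the robust quasi-likelihood F test of edgeR 4.0.16; p-values were adjusted by Benjamini-Hochberg over 15018 genes at a threshold of 0.05, and the code was tested on simulated data. Standard errors were derived from the log2 fold change and its F and are approximate. P-values rest on the spread between 3 and 3 males. With 0 reads in a genotype, the fold is a bound against 3 reads over its libraries; with 1 to 3 reads, a ratio with its 95% exact interval. Both cover only counting error, because reads lacking molecular identifiers do not stand for independent molecules.

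The genes and lists were chosen with earlier results of these data known. The named genes are the 8 lowest and 8 highest log2 fold changes of called genes that averaged a log2 CPM of at least 2 and whose genotypes did not overlap; the 8 highest mean CPM in wild type; the 6 highest in Stra8-deficient; the 4 smallest changes; and any gene called higher. Others were chosen after their values were seen. Symbols, kinds and promoters come from RefSeq GRCm38.p6, and exon overlaps and neighbouring starts from GENCODE M21; no coordinates were converted. A motif window of 300 bases was compared with the nearest 100. Alternatives were RLE, upper-quartile and library-size scaling, no or a stricter filter (CPM of at least 1 in at least 3 libraries), DESeq2 1.42.0, limma-voom (limma 3.58.1), a test against a fold of 2, the replicate number as a block and leaving out each library. The set without exon overlap was added after seeing the data.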

Additional observations from a re-analysis of the deposited data

Results flagged for a closer look

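The count file of Stra8-deficient replicate 3 holds 158 further names of the 1700 series that the other 5 files do not, and 53 of them had at least 1 read, 1511 reads in all. They were flagged as a signal outside the comparison, above the limit of 3 reads that a count of 0 allows. The most reads fell in 1700012D01Rik (357), 1700113A16Rik (191), 1700028E10Rik (153) and 1700011J10Rik (121). Without a count in the other 5 libraries, no genotype can be compared for these names.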

How the results depend on the processing

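Over 15 alternatives, which tested 217 to 232 of the 1700-series genes, the number called lower was 195 to 212 (202 of 217 in the report), and no gene called lower there was called higher in any of them; 196 stayed lower with library size alone and 195 against a fold of 2. The number called higher (7) was less stable: 11 with library size alone, 1 against a fold of 2, 3 among genes without exon overlap and 3 to 6 with 1 library left out. The median log2 fold change (-7.61) was -7.73 with RLE, -7.03 with library size alone, -7.35 with upper-quartile scaling, -7.21 without a filter, -7.54 with the stricter filter, -7.81 with DESeq2, -7.55 with limma-voom, -8.36 without exon overlap and -7.709 to -7.479 with 1 library left out. Scaling moved the median of all tested genes from 0.111 to -0.009 (RLE), 0.725 (library size alone) and 0.383 (upper quartile), and the share of calls that were higher was 51.5%, 48.9%, 63.6% and 57.3% in that order; the cause of other shifts was not tested. Signs that turned were those of 1700012B15Rik (0.33), 1700020O03Rik (0.48, called higher at adjusted p = 0.0348), 1700048O20Rik (0.015) and 1700066M21Rik (0.087) with library size alone, 1700020O03Rik (0.14) with upper-quartile scaling, and 1700025G04Rik with RLE (-0.0061), with DESeq2 (-0.0068) and with 1 library left out (-0.12 to 0.22). Of 19 named lower genes 17 kept their call under all alternatives; the exceptions were Ift43 and 1700048O20Rik.

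Replicate numbers did not pair the libraries: deviations of same-numbered libraries correlated at 0.0582, 0.0797 and -0.0404. With the number as a replicate block 208 genes were called, 202 lower and 6 higher, at a median of -7.60; the Tex30 call was the one lost (adjusted p = 0.091). Depth limits the 41 tested genes with 0 reads, whose folds are bounds from 29.3-fold upward, and the 26 tested genes with 1 to 3 reads. In the shorter window, which holds fewer bases, the share fell for each motif searched except TGACGTCA (1.1% in both).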

Other observations

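A further 3 names of the 1700 series are listed in the other 5 files but not in that of Stra8-deficient replicate 3. 1700007E06Rik had 377 and 308 reads in Stra8-deficient replicates 1 and 2, against 439, 476 and 325 reads in wild type. 1700058C13Rik had 1 and 0 reads against 799, 954 and 621, and 1700023I07Rik had 0 and 0 reads against 316, 419 and 239. These are unscaled reads and were not tested.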
